A study of Homo sapiens with 6 samples.

Results

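The mesenchymal state genes described here are 10 genes listed by name, with earlier results of these data known: VIM, FN1, CDH2, TNC and TGFBI, which encode cytoskeletal, adhesion and matrix proteins, and ZEB1, ZEB2, SNAI1, SNAI2 and TWIST1, which encode transcription factors of the epithelial-mesenchymal transition. Of the 10, 8 have a row among the 32692 genes of the deposited table, and CDH2 and TWIST1 are not analysed here. RNA came from DU145, an established human prostate carcinoma line, in 3 libraries after 24 h with the solvent DMSO and 3 libraries after 24 h with 5 µM OTI-611. Only a code name is given for OTI-611, whose target per the series title is CHD1L, which encodes a chromatin remodeller. The labels do not say whether the 3 libraries of a group came from separate cultures, so the spread behind every p-value is that between libraries and may be technical.

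In the epithelial-mesenchymal transition, cells give up tight contacts with their neighbours and take on traits of motile connective tissue cells. ZEB and SNAI factors are zinc finger repressors that bind E-box sequences in epithelial genes such as CDH1, the gene of E-cadherin, while vimentin, fibronectin and tenascin C are made in greater amounts. TGF-beta is a classical inducer of this programme, and carcinoma cells often hold epithelial and mesenchymal transcripts side by side. The question asked of these 8 genes was whether they differed between OTI-611 and DMSO, and whether they did so in one direction.

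Levels are read as RPKM, that is, reads corrected for the length of the gene and the depth of the library. Only DMSO 1 is without decimals. In genes between 1 and 50 RPKM it averaged 0.51 to 0.53 RPKM under the other DMSO libraries, close to the 0.5 that dropping decimals takes away on average. In genes of 50 to 200 RPKM it averaged 0.918 ± 0.098 RPKM (SE) under them. That is more than the 0.5 of dropped decimals, and its cause was not tested. If decimals were dropped, a DMSO 1 value may stand for anything up to 1 RPKM above it. This matters for ZEB2 and SNAI2, listed there at 0, and for SNAI1 and FN1, listed there at 1. The members' differences and the counts of calls are given with and without this library. Depth, estimated from the step between low values, was 30.7 M reads in DMSO 2, 32.4 M in DMSO 3 and 37.3 to 37.7 M with OTI-611. Differences are on the scale of log2(RPKM + 1), which understates those of low genes, and p-values come from limma across all genes tested with Benjamini-Hochberg adjustment at a threshold of 0.05.

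The 8 genes did not move in one direction. SNAI2, ZEB1, TNC and VIM rose with OTI-611, and TGFBI fell. FN1 and SNAI1 had lower means with OTI-611 and did not pass with all 6 libraries (adjusted p = 0.14 and adjusted p = 0.081 in limma), and both passed as lower without DMSO 1. ZEB2 lay under the mean of 1 RPKM required for testing. So 5 of the 7 members tested were called, 4 higher and 1 lower. Among all 11978 genes tested, 65.2% were called, 27.8% higher and 37.3% lower, so being called is the common state in these data. Without DMSO 1 all 7 were called, 4 higher and 3 lower, beside 68.2% of 12119 genes, 26.3% higher and 41.9% lower. The median difference of the 7 was 0.31, against -0.05 over all genes tested. In 6 of the 8 genes the 3 OTI-611 libraries did not overlap the 3 DMSO libraries, 5 of them higher and 1 lower. The higher ones include ZEB2, which was not tested and would overlap with DMSO 1 at 1 RPKM above its listed value. FN1 and SNAI1 would then lie lower with no overlap, as they did without DMSO 1. Over all genes tested, which leave out ZEB2, 70.2% did not overlap, 30.5% higher and 39.7% lower. Among the tested members those without overlap were SNAI2, ZEB1, TNC and VIM, higher, and TGFBI, lower. No such share over all genes was computed without DMSO 1. SNAI2 reached the minimum for testing only through its OTI-611 values and SNAI1 only through its DMSO values, so these counts are a description. Leaving out DMSO 1 gave 0.32 for VIM, 0.52 for TNC, 0.86 for ZEB1 and -0.83 for TGFBI on the log2 scale, close to the values with all 6 libraries.

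**Figure D1:**
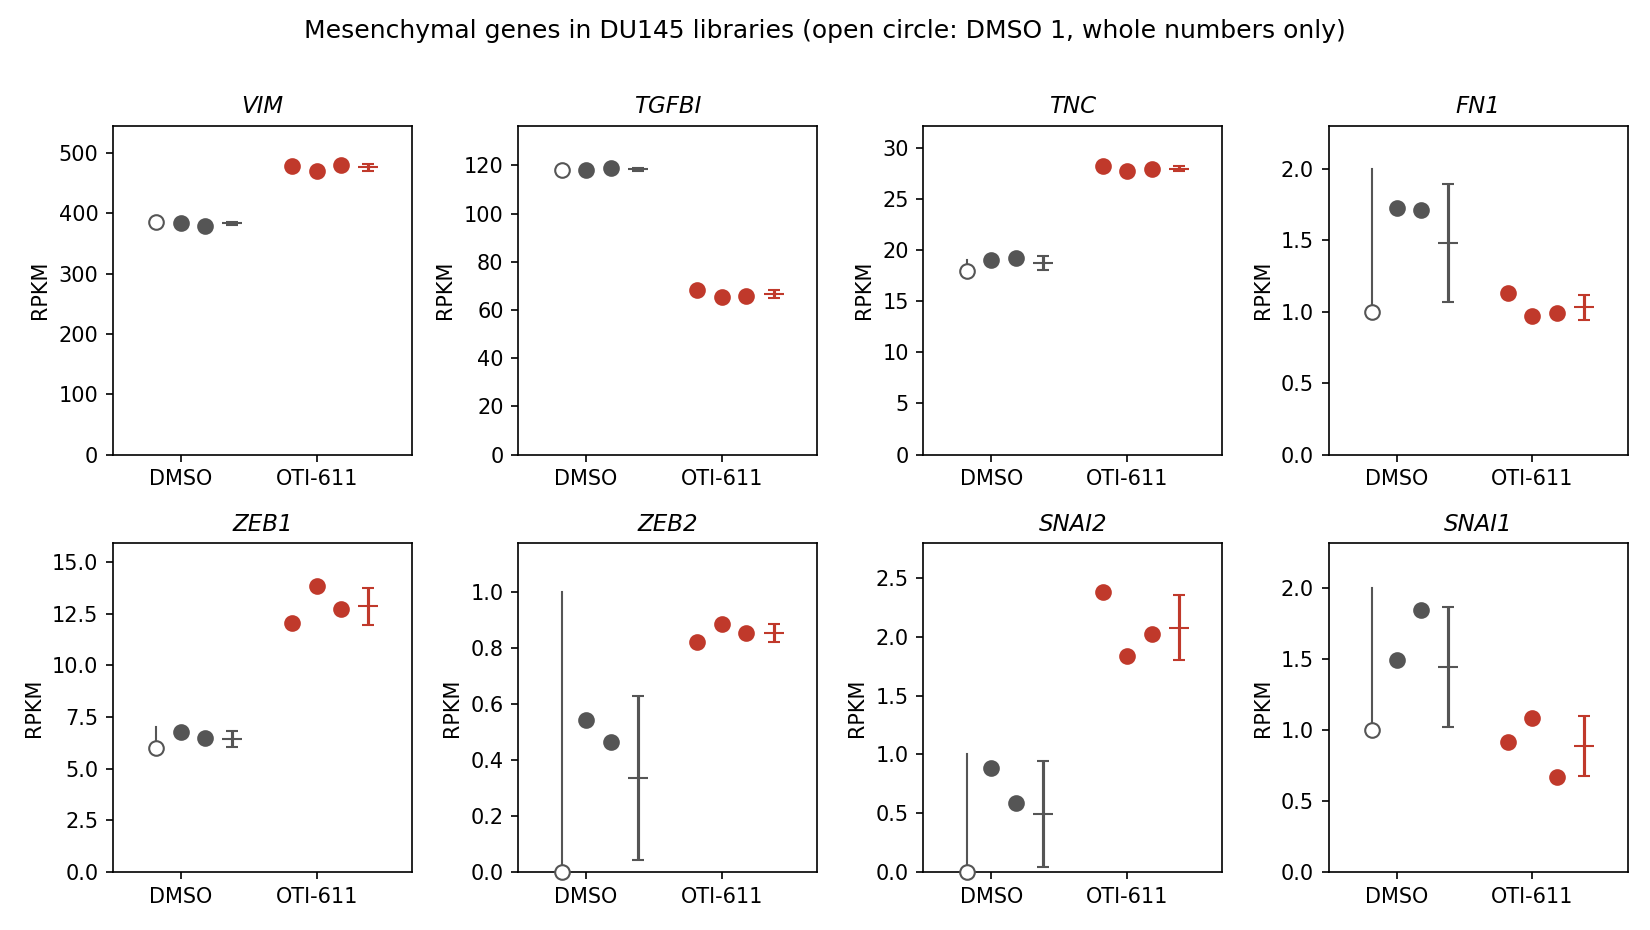
RPKM of the 8 mesenchymal genes in each library, with DMSO in grey and OTI-611 in red, each axis starting at 0, and bars giving the mean ± SD of 3 libraries. The open circle is DMSO 1, and its line spans 1 RPKM above the listed value, the range a dropped decimal allows. The OTI-611 libraries stand clear of DMSO in VIM, TGFBI, TNC, ZEB1 and SNAI2, and DMSO 1 decides whether the groups meet in FN1, ZEB2 and SNAI1.

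VIM encodes vimentin, the intermediate filament protein of mesenchymal cells. It was listed at 385, 384 and 379 RPKM in DMSO 1, 2 and 3 and at 478, 469.5 and 479.7 RPKM in OTI-611 1, 2 and 3. Every OTI-611 library lay above every DMSO library, with no overlap. The groups stood at 383 ± 3.3 and 476 ± 5.4 RPKM (SD, n = 3 per group), a difference of 0.31 ± 0.022 (SE) on the log2 scale with an adjusted p of 2.10e-06 in limma. The ratio of the OTI-611 mean to that of DMSO 2 and DMSO 3 was 1.25. VIM was among the highest transcripts before treatment, at the 99.8 percentile of the RPKM of all genes in DMSO 2 and DMSO 3, so its rise was small as a ratio and large in RPKM.

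VIM lies on the plus strand of chromosome 10 from 17228259 to 17237593 in GENCODE release 29 on GRCh38. Exons of other genes, VIM-AS1 among them, cover 24.4% of its exon bases, and whether reads were counted by strand is not given in the sources used here. VIM-AS1, the antisense partner at the start of VIM, was listed at 0, 1.17 and 0.989 RPKM with DMSO and at 0.338, 0.380 and 0.599 RPKM with OTI-611. Its values lay far below those of VIM in every library. It fell under the minimum for testing. With no minimum its groups overlapped and the difference was -0.18 ± 0.32 (SE, limma adjusted p = 0.77). Leaving out DMSO 1 as well gave -0.53 ± 0.12 (SE, limma adjusted p = 0.025), in a fit that called 29.9% of all genes.

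TNC encodes tenascin C, a matrix glycoprotein of wound edges and tumour stroma that cells bind through integrins. It was listed at 18, 19.1 and 19.3 RPKM with DMSO and at 28.2, 27.8 and 27.96 RPKM with OTI-611. The 3 OTI-611 libraries lay within 0.5 RPKM of one another and well above all DMSO libraries. The group values were 18.8 ± 0.68 and 27.98 ± 0.21 RPKM (SD, n = 3 per group), a difference of 0.55 ± 0.035 (SE; limma adjusted p = 1.21e-06). The OTI-611 mean was 1.46-fold that of DMSO 2 and DMSO 3.

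TGFBI encodes a secreted matrix protein that is induced by TGF-beta and links collagens to integrins. It was listed at 118, 118 and 119 RPKM with DMSO and at 68.3, 65.2 and 65.8 RPKM with OTI-611. This is the one member in which every OTI-611 library lay below every DMSO library when all 6 were used. TGFBI fell, with a DMSO mean of 118 ± 0.63 RPKM, an OTI-611 mean of 66.4 ± 1.7 RPKM (SD, n = 3 per group) and a difference of -0.82 ± 0.026 (SE; limma adjusted p = 2.29e-08). The mean of DMSO 2 and DMSO 3 was 1.78-fold that of OTI-611. Its difference stood at the 4.40 percentile of all genes tested, near the low end, while that of TNC stood at the 92.6 percentile. These matrix genes changed in opposite directions. The ratio of TNC to TGFBI within a library was 0.153 to 0.162 with DMSO and 0.413 to 0.426 with OTI-611. It was formed after the values were seen and was not tested.

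FN1 encodes fibronectin, a matrix protein bound by the integrin of ITGA5 and ITGB1. It was low for a mesenchymal gene, at 1, 1.72 and 1.71 RPKM with DMSO and 1.13, 0.972 and 0.990 RPKM with OTI-611. The whole number of DMSO 1 lies inside the OTI-611 range, whereas DMSO 2 and DMSO 3 lie above it. All 6 libraries gave a difference of -0.27 ± 0.15 (SE; limma adjusted p = 0.14). Leaving out DMSO 1 gave -0.42 ± 0.085 (SE; limma adjusted p = 0.0036), and with 0.5 added to every value of DMSO 1, a setting chosen after seeing the data, the value was -0.38 (limma adjusted p = 0.0039). On its long transcripts these levels stand for many reads, an estimated 915 and 960 in DMSO 2 and DMSO 3 and 627 to 730 in the OTI-611 libraries.

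TNC lies on chromosome 9 from 115019578 to 115118257, TGFBI on chromosome 5 from 136028895 to 136063818 and FN1 on chromosome 2 from 215360440 to 215436172 in GENCODE release 29. For TNC, 1.34% of exon bases are shared with another gene, and for TGFBI and FN1 none are.

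ZEB1 encodes a zinc finger repressor of epithelial genes. It was listed at 6, 6.75 and 6.50 RPKM with DMSO and at 12.1, 13.8 and 12.7 RPKM with OTI-611. The lowest OTI-611 library lay above the highest DMSO library by more than 5 RPKM. The group values were 6.42 ± 0.38 and 12.9 ± 0.89 RPKM (SD, n = 3 per group), a difference of 0.90 ± 0.061 (SE; limma adjusted p = 1.80e-06). The OTI-611 mean was 1.94-fold that of DMSO 2 and DMSO 3, and the difference stood at the 97.4 percentile of all genes tested. ZEB1 lies on the plus strand of chromosome 10 from 31318495 to 31529814 in GENCODE release 29, and exons of ZEB1-AS1 cover 4.23% of its exon bases. ZEB1-AS1, transcribed away from the start of ZEB1, was listed at 2, 2.33 and 2.26 RPKM with DMSO and at 2.03, 2.01 and 2.07 RPKM with OTI-611. Its difference was -0.07 ± 0.092 (SE; limma adjusted p = 0.52) and turned to 0.04 after quantile normalization, so it did not pass beside the rise of ZEB1.

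ZEB2, the other ZEB factor, was listed at 0, 0.544 and 0.466 RPKM with DMSO and at 0.822, 0.888 and 0.854 RPKM with OTI-611. The OTI-611 libraries lay above the DMSO libraries as listed, but a dropped decimal in DMSO 1 could reach past them. Its mean was under the minimum of 1 RPKM. Dropping the minimum gave 0.50 ± 0.21 (SE; limma adjusted p = 0.19), and leaving out DMSO 1 as well gave 0.30 ± 0.083 (SE; limma adjusted p = 0.0497), beside 22.1% and 29.9% of genes called in those fits. The OTI-611 mean was 1.69 times that of DMSO 2 and DMSO 3, on an estimated 378 to 418 reads per DMSO library and 768 to 829 per OTI-611 library. ZEB2 lies on chromosome 2 from 144364364 to 144524583. ZEB1 was 12.4 and 14.0 times ZEB2 in DMSO 2 and DMSO 3 and 14.7 to 15.6 times ZEB2 with OTI-611, so ZEB1 was the main ZEB transcript in both groups.

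SNAI2 encodes Slug, a repressor of the Snail family. It was listed at 0, 0.887 and 0.589 RPKM with DMSO and at 2.38, 1.84 and 2.02 RPKM with OTI-611. Even a DMSO 1 value just under 1 would leave the groups apart. The difference was 1.09 ± 0.22 (SE; limma adjusted p = 0.0020) with all 6 libraries and 0.83 ± 0.12 (SE; limma adjusted p = 6.26e-04) without DMSO 1. The OTI-611 mean was 2.82-fold that of DMSO 2 and DMSO 3, the highest ratio among the 8 genes by that measure. The values rest on an estimated 92 and 65 reads in DMSO 2 and DMSO 3 and 232 to 301 reads in the OTI-611 libraries. SNAI2 lies on chromosome 8 from 48917604 to 48921740.

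SNAI1 encodes Snail, the close relative of Slug, and its values lay the other way. It was listed at 1, 1.49 and 1.84 RPKM with DMSO and at 0.911, 1.08 and 0.668 RPKM with OTI-611. DMSO 1 lies within the OTI-611 range, and DMSO 2 and DMSO 3 lie above it. The difference was -0.36 ± 0.17 (SE; limma adjusted p = 0.081) with all 6 libraries and -0.50 ± 0.12 (SE; limma adjusted p = 0.0089) without DMSO 1. With 0.5 added to DMSO 1 it was -0.47 (limma adjusted p = 0.0046). SNAI1 rests on few reads, an estimated 77 and 101 in DMSO 2 and DMSO 3 and 42 to 68 with OTI-611. It lies on chromosome 20 from 49982999 to 49988886.

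The ratio of SNAI1 to SNAI2 within a library was 1.68 and 3.13 in DMSO 2 and DMSO 3 and 0.383, 0.590 and 0.330 in the OTI-611 libraries. SNAI1 was thus the higher of the pair in the DMSO libraries that have decimals, and SNAI2 the higher in all 3 OTI-611 libraries. This ratio was formed after the values were seen and was not tested.

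By level per transcript length, the order in DMSO 2 and DMSO 3 was VIM at 382, TGFBI at 118, TNC at 19.2, ZEB1 at 6.63, FN1 at 1.72, SNAI1 at 1.67, SNAI2 at 0.738 and ZEB2 at 0.505 RPKM. FN1 and SNAI1 overlapped there and cannot be ordered. With OTI-611 the means were 476, 66.4, 27.98 and 12.9 RPKM for VIM, TGFBI, TNC and ZEB1, in the same order. SNAI2 followed at 2.08 RPKM, clear of FN1 at 1.03 RPKM. FN1, SNAI1 at 0.887 RPKM and ZEB2 at 0.854 RPKM came last, and SNAI1 overlapped both of the others.

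**Figure D2:**
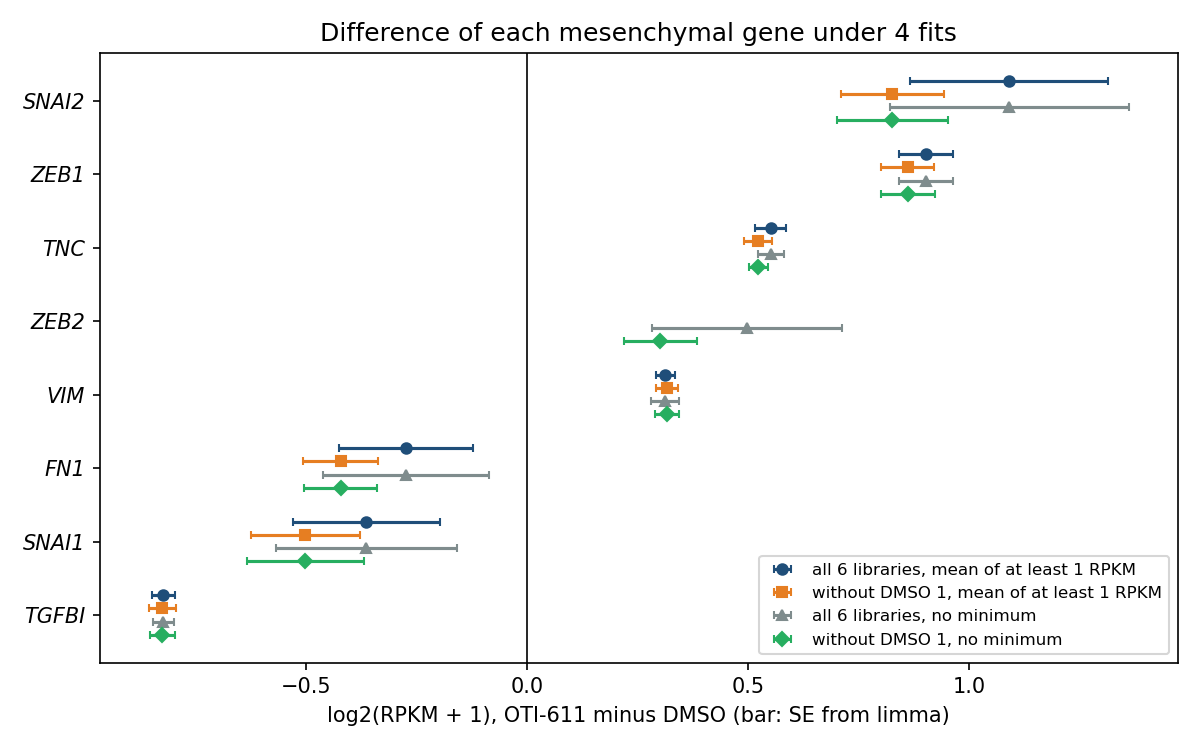
Difference of each of the 8 mesenchymal genes, OTI-611 minus DMSO in log2(RPKM + 1), with bars for the SE from limma, under 4 fits that use or leave out DMSO 1 and the minimum of 1 RPKM. VIM, TNC, ZEB1 and TGFBI hardly move between fits, SNAI2 goes from 1.09 to 0.83 without DMSO 1, and FN1 and SNAI1 lie further below 0 without it. ZEB2 has values only with no minimum.

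Epithelial genes that these factors are known to repress were taken from a list of 21, of which 20 had a row and 12 were tested. Falls were called in 7 of the 12 and a rise in 1, while 4 missed the threshold, beside 37.3% lower and 27.8% higher over all genes tested. Their median difference was -0.26, against -0.05 for all genes tested. CDH1, the gene of E-cadherin, was listed at 4, 4.39 and 4.80 RPKM with DMSO and at 1.45, 1.46 and 1.71 RPKM with OTI-611. Every OTI-611 library lay below every DMSO library, and the difference was -1.09 ± 0.092 (SE; limma adjusted p = 7.11e-06), or -1.14 without DMSO 1. The mean of DMSO 2 and DMSO 3 was 2.99-fold that of OTI-611. Within each library ZEB1 stood at 1.5, 1.54 and 1.35 times CDH1 with DMSO and at 8.29, 9.49 and 7.45 times CDH1 with OTI-611, a ratio formed after the values were seen and not tested.

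The other called falls in that list were LLGL2 (-0.76), a cell polarity gene, CLDN4 (-0.60) and CLDN3 (-0.26) of tight junctions, KRT8 (-0.50), ESRP2 (-0.35), an epithelial splicing regulator, and PATJ (-0.27), a polarity scaffold. KRT19 rose by 0.13 (limma adjusted p = 0.028), a call lost without DMSO 1, DMSO 3, OTI-611 2 or OTI-611 3 (limma adjusted p = 0.11, adjusted p = 0.071, adjusted p = 0.054 and adjusted p = 0.088). ESRP1, which lay under the minimum, was listed at 0, 0.415 and 0.335 RPKM with DMSO and at 0.981, 0.909 and 0.738 RPKM with OTI-611, so the values of the pair of ESRP genes lay in opposite directions. With no minimum its difference was 0.60 (limma adjusted p = 0.076), and 0.45 without DMSO 1 (limma adjusted p = 0.025). EPCAM, an adhesion molecule of epithelial cells, stood at 13, 14.6 and 14.0 RPKM with DMSO and 13.0, 15.2 and 13.1 RPKM with OTI-611, and its difference of -0.01 changed sign with the scaling. EPCAM did not pass in any of the 16 other settings. OCLN, the gene of the tight junction protein occludin, also lay the other way, at 0, 0.713 and 0.723 RPKM with DMSO and 1.15, 1.53 and 1.19 RPKM with OTI-611. Every OTI-611 library lay above every DMSO library as listed, and its promoter held 1 E-box of the kind that ZEB and SNAI factors bind. It was under the minimum with all 6 libraries (0.67 with no minimum, limma adjusted p = 0.16) and rose by 0.41 without DMSO 1 (limma adjusted p = 0.011). Without DMSO 1 the list gave 13 tested genes, 1 called higher, which was OCLN, 7 called lower and a median of -0.29. CLDN3, CLDN4, OCLN and PATJ were named after their values were seen.

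**Figure D3:**
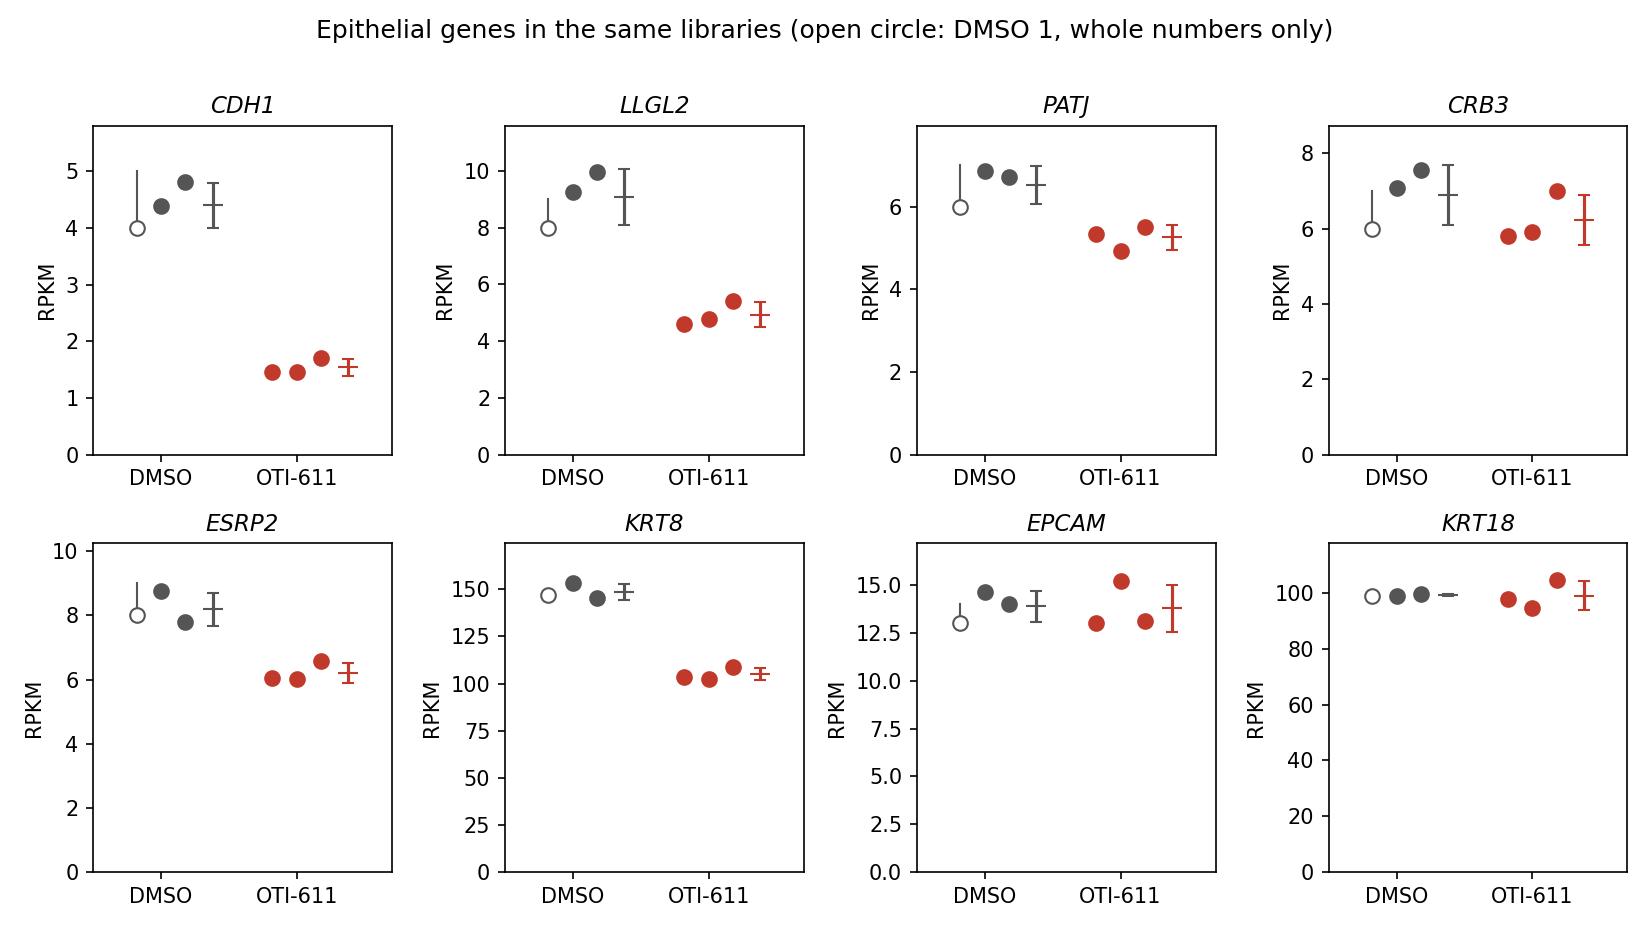
RPKM of 8 epithelial genes in each library, with the same colours, marks and bars as for the mesenchymal genes. CDH1, LLGL2, PATJ, ESRP2 and KRT8 have all OTI-611 libraries below all DMSO libraries, and CRB3, EPCAM and KRT18 overlap.

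VIM was compared with the keratin gene KRT18 within each library, since both were abundant. The difference of VIM minus KRT18 in log2(RPKM + 1) was 1.95, 1.94 and 1.92 with DMSO and 2.28, 2.30 and 2.18 with OTI-611. The groups did not overlap, and the mean rose from 1.94 ± 0.018 to 2.25 ± 0.060 (SD, n = 3 per group), which an exact two-sided permutation test gave p = 0.1, the smallest p that 3 against 3 libraries allow. KRT18 itself did not pass (a difference of -0.0040, limma adjusted p = 0.93), so the balance mostly restates the rise of VIM. Other keratin genes differed from KRT18. KRT7 (-0.32, limma adjusted p = 9.43e-06) and KRT8 (-0.50) fell, and KRT19 rose (0.13), a call lost in several settings. KRT7 was named after its values were seen. KRT8 and KRT18 overlap on opposite strands, and the shared bases are 7.63% and 16.3% of their exon bases.

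ZEB and SNAI factors recognise E-boxes of the letters CACCTG, or CAGGTG on the other strand, and promoters were searched for these letters on both strands. The window ran from 250 bases before the start to 30 bases after it, taken from RefSeq on GRCh38.p14. Of 27305 promoters, 19.2% held at least 1 such E-box, 3.07% at least 2 and 0.55% at least 3. RefSeq promoters matched 7 of the 10 members, and 1 of these, ZEB1, held the letters, while 6 of the 10 matched promoters of the epithelial list did. PATJ alone among those 6 was called lower. CRB3 and DSP did not pass, and OCLN, RAB25 and MIR200CHG lay under the minimum for testing. CLDN3, CLDN4 and KRT8 were called lower and held 0 E-boxes in the window. The list was chosen as genes that these factors repress, so its share with E-boxes is a description. CDH1 was not among the matched promoters. The promoters below are shown because ZEB1 rose and PATJ and CRB3, epithelial polarity genes, held 3 and 5 E-boxes. Capitals mark the E-boxes and each sequence runs 5′ to 3′ on the plus strand.
ZEB1, chr10:31318167-31318446: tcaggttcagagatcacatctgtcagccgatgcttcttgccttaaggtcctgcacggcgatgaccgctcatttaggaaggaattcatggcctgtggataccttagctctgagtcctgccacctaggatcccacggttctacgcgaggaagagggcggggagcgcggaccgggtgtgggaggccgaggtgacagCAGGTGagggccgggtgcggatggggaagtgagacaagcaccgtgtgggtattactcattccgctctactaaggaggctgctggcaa
PATJ, chr1:61742230-61742509: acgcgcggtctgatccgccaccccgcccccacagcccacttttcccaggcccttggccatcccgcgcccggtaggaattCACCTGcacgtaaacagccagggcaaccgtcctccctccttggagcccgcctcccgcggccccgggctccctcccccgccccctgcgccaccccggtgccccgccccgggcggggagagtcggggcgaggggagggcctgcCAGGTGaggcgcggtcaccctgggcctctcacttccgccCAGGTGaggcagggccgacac
CRB3, chr19:6464021-6464300: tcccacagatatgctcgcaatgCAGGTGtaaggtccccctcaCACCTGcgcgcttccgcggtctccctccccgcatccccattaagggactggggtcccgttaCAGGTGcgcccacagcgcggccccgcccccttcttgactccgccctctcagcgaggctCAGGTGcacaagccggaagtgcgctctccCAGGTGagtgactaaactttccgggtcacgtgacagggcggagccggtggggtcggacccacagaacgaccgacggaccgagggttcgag

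A match of letters is not a bound site, and base composition was not taken into account. PATJ was listed at 6, 6.86 and 6.72 RPKM with DMSO and at 5.34, 4.93 and 5.51 RPKM with OTI-611, and it fell by 0.27 on the log2 scale (limma adjusted p = 0.0061). CRB3, with more E-boxes in its window, was listed at 6, 7.09 and 7.56 RPKM with DMSO and at 5.79, 5.90 and 6.99 RPKM with OTI-611. Its groups overlapped and its difference of -0.12 did not pass (limma adjusted p = 0.25). The E-box of ZEB1 itself starts 57 bases before the start used for its RefSeq promoter, which is not the GENCODE start given for ZEB1 above. PATJ and CRB3 were chosen after their sequences and values were seen.

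Other transcription factors tied to the same transition were taken from a list of 17, of which 12 had a row and 8 were tested. Rises were called in 4 of the 8, a fall in 1 and nothing in 3, and the median was 0.41. The shares over all genes tested were 27.8% higher and 37.3% lower. Leaving out DMSO 1 gave 4 higher, 2 lower and a median of 0.34. HMGA2 (1.07), a chromatin architectural protein, SOX9 (0.97), ETS1 (0.73) and RUNX2 (0.70) rose, although the call of RUNX2 was lost when all libraries were cut to whole numbers (limma adjusted p = 0.064). ETS1 was the highest of them, at 55.5 ± 0.80 RPKM with DMSO and 92.7 ± 3.7 RPKM with OTI-611 (SD, n = 3 per group; limma adjusted p = 1.59e-07). HMGA2 was listed at 0, 0.620 and 0.674 RPKM with DMSO and at 1.80, 1.86 and 2.13 RPKM with OTI-611, so like SNAI2 it reached the minimum through OTI-611. Its difference was 0.83 without DMSO 1. FOXC1, which reached the minimum only through DMSO, fell by 0.42 on the log2 scale (limma adjusted p = 0.043). The call was lost with no minimum (limma adjusted p = 0.24) and without OTI-611 1 or OTI-611 3 (limma adjusted p = 0.099 and adjusted p = 0.15).

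Other mesenchymal matrix and cytoskeleton genes went both ways, as the members did. Only 10 of the 23 listed genes were tested. Of these 3 were called higher, 4 lower and 3 neither, beside 27.8% higher and 37.3% lower over all genes tested. Their median was -0.0035. Without DMSO 1 the counts were equal and the median was -0.031. MMP14 (1.22), a membrane-bound collagenase, LOX (1.11), which cross-links collagen, and CD44 (0.35) rose. S100A4 (-1.83), a calcium-binding protein of motile cells, TPM1 (-0.95), an actin-binding tropomyosin, TAGLN (-0.67) and CALD1 (-0.36), both of contractile filaments, fell. S100A4 was listed at 17, 16.9 and 18.5 RPKM with DMSO and at 3.62, 4.43 and 4.52 RPKM with OTI-611, a lower level in each OTI-611 library. LOX, TAGLN and CALD1 were named after their values were seen.

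Since TGF-beta induces TGFBI and the transition, its pathway was set beside the members. In a list of 21 genes 16 were tested, with a median of 0.043. Of the 16, 7 were called higher, 6 lower and 3 neither, beside 27.8% higher and 37.3% lower over all genes tested. Without DMSO 1 there were 6 called higher, 6 lower and a median of 0.0086. The ligand genes TGFB1 and TGFB2 fell by 0.48 and 0.57 on the log2 scale (limma adjusted p = 1.97e-05 and adjusted p = 2.74e-04). TGFB1 was listed at 28, 29.5 and 29.3 RPKM with DMSO and at 19.2, 20.6 and 21.8 RPKM with OTI-611. The ligand gene TGFB3 lay under the minimum, at 1, 1.36 and 1.13 RPKM with DMSO and 0.180, 0.148 and 0.293 RPKM with OTI-611. With no minimum its difference was -0.84 (limma adjusted p = 0.012), and -0.90 without DMSO 1 (limma adjusted p = 0.0028). Those fits called 22.1% and 29.9% of all genes. TGFB3 was named after its values were seen. SMAD3, a signal transducer of the receptors, fell by 0.70 on the log2 scale, with means of 35.1 ± 0.10 RPKM for DMSO and 21.2 ± 0.46 RPKM for OTI-611 (SD, n = 3 per group; limma adjusted p = 1.28e-07). The receptor gene TGFBR2 fell by 0.18 and LTBP4, which tethers latent TGF-beta, by 0.62 on the log2 scale. TGFBI also fell with OTI-611, as did 37.3% of all genes tested, and whether its fall is tied to these genes was not tested.

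Among the rises were SMURF2 (0.64) and SMURF1 (0.41), ubiquitin ligases that limit the pathway, BAMBI (0.67), a decoy receptor, SKIL (0.54), a SMAD repressor, and SMAD4 (0.45) and SMAD2 (0.40). SKIL, SMAD4 and SMAD2 were named after their values were seen. The receptor gene TGFBR1 rose by 0.13 on the log2 scale (limma adjusted p = 0.046), but its call was lost without DMSO 1, 2 or 3 (limma adjusted p = 0.10, adjusted p = 0.073 and adjusted p = 0.057) and without OTI-611 1 or 2 (limma adjusted p = 0.090 and adjusted p = 0.17). Genes that carry the signal thus lay on both sides, SMAD3 lower and SMAD2 and SMAD4 higher.

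Receptors and partners of the matrix members and of cadherins were split as well. The list of 15 gave 11 tested genes, with a median of 0.0058. Of the 11, 3 were called higher, 4 lower and 4 neither, beside 27.8% higher and 37.3% lower over all genes tested. Leaving out DMSO 1 gave equal counts and a median of 0.012. ITGB1, the integrin beta chain that pairs with many alpha chains, rose by 0.31 on the log2 scale, with means of 302 ± 2.8 RPKM for DMSO and 376 ± 3.0 RPKM for OTI-611 (SD, n = 3 per group; limma adjusted p = 1.85e-06). ITGB5 (0.64) and CTNNA1 (0.35), the alpha-catenin gene, rose. ITGAV (-0.21) and ITGA5 (-0.17), alpha chains of fibronectin receptors, SDC1 (-0.48) and JUP (-0.68), which encodes plakoglobin, fell. The call of ITGA5 was lost after rescaling to the median log ratio (limma adjusted p = 0.066).

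All 10 listed corepressors that ZEB and SNAI factors recruit were tested. They split evenly, with 4 called higher, 4 lower and 2 neither, beside 27.8% higher and 37.3% lower over all genes tested. Their median was 0.017. The counts were equal without DMSO 1, with a median of 0.012. RCOR1 (0.47), of the CoREST complex, and EZH2 (0.33), a histone methyltransferase, rose. HDAC1 (-0.51), a histone deacetylase, and KDM1A (-0.38), a histone demethylase, fell. KDM1A and RCOR1 are partners in one complex and moved in opposite directions.

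**Figure D4:**
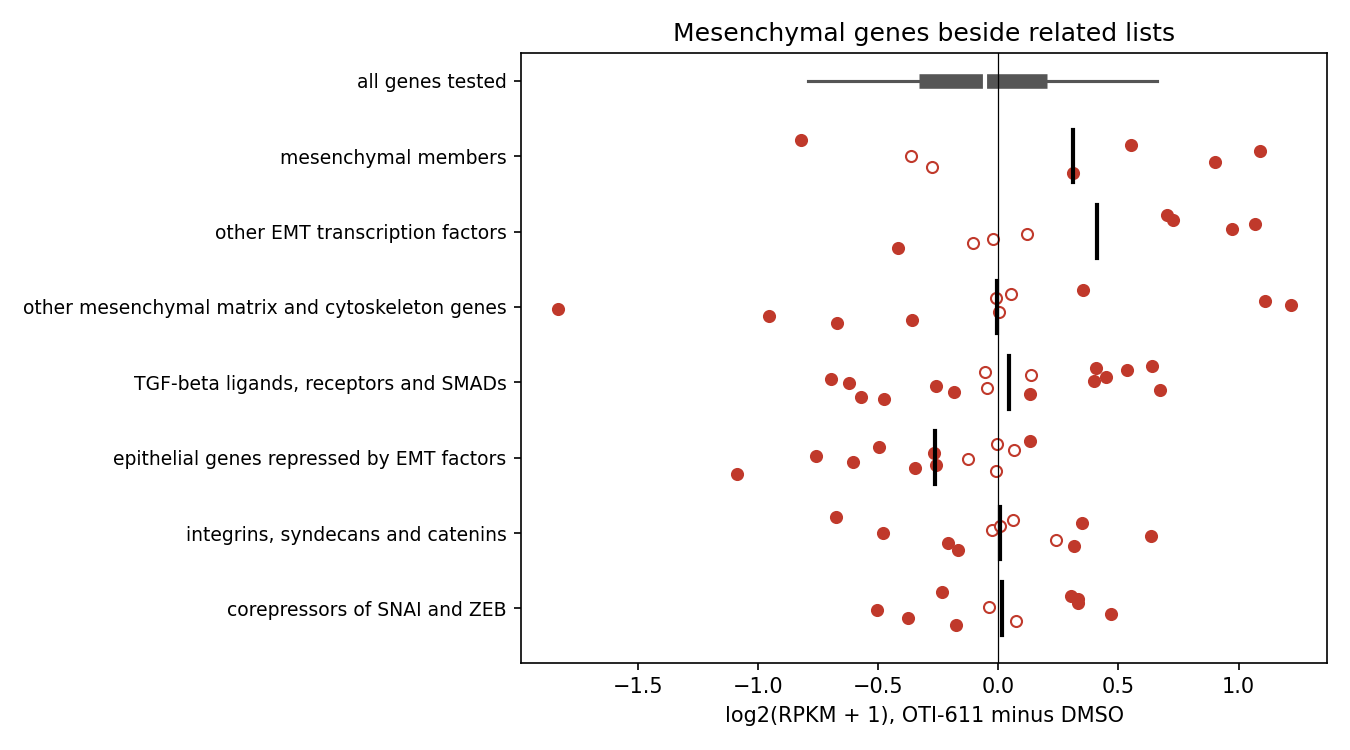
Difference of each tested gene, OTI-611 minus DMSO in log2(RPKM + 1), for the mesenchymal genes and 6 related lists. Filled points passed an adjusted p of 0.05 in limma, open points did not, black lines are list medians, and the grey bar shows the 5, 25, 50, 75 and 95 percentiles of all 11978 genes. The mesenchymal median is 0.31 and the epithelial median -0.26, and every list has genes on both sides of 0.

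Markers of other cell types were near 0. All 7 fibroblast markers with a row, of 9 listed, were under 1 RPKM in every library, and their summed level was 0 to 0.778 RPKM with DMSO and 0.172 to 0.288 RPKM with OTI-611. The 5 endothelial markers summed to at most 0.0585 RPKM and the 4 leukocyte markers with a row, of 5 listed, to at most 0.225 RPKM in any library. Epithelial markers with a row, 6 of 7 listed, summed to 921 to 970 RPKM with DMSO and 821 to 852 RPKM with OTI-611. They did not move together. KRT7, KRT8 and CDH1 were called lower, KRT19 was called higher, and KRT18 and EPCAM did not pass. Over all genes tested 37.3% were called lower and 27.8% higher. KRT7, the highest of the 6, had means of 428 RPKM with DMSO and 343 RPKM with OTI-611. VIM and TGFBI thus stood beside abundant keratins in both groups. In bulk RNA, a smaller share of cells with a transcript and less of it per cell cannot be told apart.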

How the data were processed

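Per the submitters' processing notes, the tools named are TopHat2 2.0.9, Cufflinks 2.1.1, CASAVA 1.7, HTSeq and FastQC, with the build mm10, in no stated role. All 32692 gene IDs are human and 0 are mouse, so the build and annotation used are not established. The authors deposited 5 columns taken here as RPKM from their decimals and steps (FPKM cannot be told apart), and deposited DMSO 1 as whole numbers, treated as a score that stands for RPKM with its decimals dropped. No column was left unused. Per the labels' protocols, messenger RNA was amplified by Geo-seq, with no molecular identifiers named.

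Genes averaging 1 or more across the 6 libraries were fitted as log2(value + 1) with limma 3.58.1 in R 4.3.3 (group only, trended empirical Bayes, two-sided), after a test on simulated data. Depths were estimated from steps using GENCODE release 29 exon lengths for 30667 matched IDs; 69.3% to 71.5% of low values were whole reads within 0.05. Estimated reads cover counting error only.

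The members and lists were chosen with earlier results of these data known. Named genes are all members, genes tied directly to them, and in each list the 4 tested genes with the smallest p plus the largest called rise and fall. Alternatives changed pseudocount, minimum, scaling, whole numbers, replicate block and libraries. Of 132 listed symbols, 118 had a row. The planned CDH2 against CDH1 balance is not analysed here.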

Additional observations from a re-analysis of the deposited data

How the results depend on the processing

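Across 16 other settings per tested gene, VIM, ZEB1, SNAI2, TNC, TGFBI and CDH1 kept their direction and stayed past the threshold, with log2 differences of 0.31 to 0.37, 0.85 to 0.99, 0.83 to 2.41, 0.52 to 0.61, -0.84 to -0.77 and -1.46 to -0.99 in that order. The highest value of SNAI2, 2.41, came with a pseudocount of 0.1 and the lowest without DMSO 1. FN1 and SNAI1 kept their direction and passed in 2 settings only, without DMSO 1 and with 0.5 added to DMSO 1. The members called lower numbered 1 in the reported fit, 1 to 3 when each library was left out in turn and 3 with 0.5 added to DMSO 1, while those called higher numbered 4 in every setting run. The lean of all genes toward falls depended on the scaling. Genes called higher and lower numbered 3332 and 4473 in the reported fit and 4085 and 4115 after quantile normalization. After that normalization the median was -0.00049 over all genes, 0.31 for the members and -0.21 for the epithelial list. EPCAM turned to 0.020 after quantile normalization, 0.041 after rescaling to the median log ratio and 0.0041 after rescaling on genes of mean 50 and more, and lay between -0.079 and 0.025 with a library left out. KRT18 turned to 0.011, 0.052 and 0.012 in those settings and lay between -0.044 and 0.028. ZEB1-AS1 turned to 0.041 after quantile normalization. None of these passed, and the cause was not tested. With the replicate block the VIM against KRT18 balance was 0.32 as without it, 7756 genes were called in place of 7805, and the members called stayed at 5. Same-numbered libraries did not deviate together (correlations 0.019, 0.00041 and -0.058). With 3 libraries per group and no decimals in DMSO 1, these correlations cannot decide whether the numbers pair the samples. Of the genes named TGFBR1 and FOXC1 lost their calls under the block (limma adjusted p = 0.061 and adjusted p = 0.070). Calls of KRT19, FOXC1 and TGFBR1 were lost in 6, 7 and 9 settings. The settings with 0.5 added and with rescaling on genes of mean 50 and more were chosen after seeing the data. The CDH2 against CDH1 balance was not run. Depth is known only as an estimate, and SNAI1, with 42 to 101 estimated reads a library, has little of it.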
